A study of Capra hircus with 3 samples.

Results

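The miR-34 and miR-449 family was followed in the skin of the Shanbei White cashmere goat across the hair follicle cycle. Its members here were miR-34a, miR-34b, miR-34c, miR-449a and miR-449b, 5 of the 313 miRNA names that could be counted. Skin from the anagen (growth), catagen (regression) and telogen (rest) stages was sequenced as small RNA, with 1 library per stage, each made from the pooled RNA of 10 adult goats, males and females in equal number. No genetic change or treatment is named for any goat. A tag, which is a distinct read sequence with its number of reads, was counted for a member when its first 18 nt equalled those of a tag that the authors had annotated to that miRNA. The rule took 12 such beginnings and placed the reads in 7 mature arms out of 461 arms in all. Each member arm is the product of the 5′ side (5p) or 3′ side (3p) of the precursor hairpin. The other arms are groups of overlapping beginnings of a miRNA that were not assigned to a side. Every member had reads in at least 1 library. Whole skin holds follicles, epidermis, dermis, vessels and some muscle, so fewer cells of a type and less RNA per cell cannot be told apart.

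Members of this family silence messenger RNAs that pair with their shared seed, the bases near the 5′ end that recognise the target. miR-34a and the miR-34b/miR-34c transcript are known as direct transcriptional targets of p53, and their products restrain the cell cycle and favour apoptosis through targets such as cyclins, cyclin-dependent kinases and BCL2. The miR-449 genes lie in an intron of CDC20B and are best known from multiciliated epithelia. Catagen is the stage in which the lower follicle is dismantled by apoptosis.

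The sequences below are shown because the seed, in capitals (bases 2 to 8 from the 5′ end), is what joins these miRNAs or sets them apart. Each is the most-read tag at the most-read start of its arm, copied 5′ to 3′ from the deposited tags and written as DNA.
miR-34a-5p: tGGCAGTGtcttagctggttgt
miR-34c-5p: aGGCAGTGtagttagctgattgc
miR-449a-5p: tGGCAGTGtattgttagctggt
miR-449b-5p: aGGCAGTGtattgttagctggct
miR-34a-3p: aATCAGCAagtatactgcccta
miR-34b-3p: aATCACTAgttccactgccatc
miR-34c-3p: aATCACTAaccacacggccagg
The 4 5p arms carried the same seed, GGCAGTG. At the starts shown, miR-34b-3p and miR-34c-3p shared another, ATCACTA, while that of miR-34a-3p was ATCAGCA. For miR-34b-3p the start shown had 13 reads in all, against 12 for a start with the seed AATCACT. miR-449a-5p and miR-449b-5p were identical at 17 of their first 18 positions, so a single wrong base could move a read between them. In the RefSeq annotation of the goat, of which only names and neighbours were used, MIR34B and MIR34C were neighbours. MIR449A and MIR449B lay inside CDC20B, with MIR449C as a neighbour.

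The libraries held 15997828 clean reads at anagen, 18111912 at catagen and 27016012 at telogen. A level is given below in reads for each 1000000 clean reads (RPM), for which 3 reads, the limit that a count of 0 allows, correspond to 0.188, 0.166 and 0.111 RPM in that order. The counted arms of the family together took 1025 reads at anagen, 1489 at catagen and 2288 at telogen, which were 64.1, 82.2 and 84.7 RPM. These were between 0.0137% and 0.0224% of all reads placed in miRNA arms.

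miR-34c-5p was the most abundant member in each library when all tags with a listed beginning were counted. It had 807 reads at anagen, 1109 at catagen and 1638 at telogen. Its level was 50.4 RPM at anagen (95% exact Poisson interval 47.0 to 54.0), 61.2 RPM at catagen (57.7 to 64.9) and 60.6 RPM at telogen (57.7 to 63.6). Catagen and telogen were thus side by side, and the interval of anagen lay below both. With the listed tags alone the order was reversed, at 83, 90 and 112 reads of miR-34c-5p against 132, 249 and 424 of miR-34a-5p, since the most-read tag of miR-34c-5p is not in the copy of the list used. Among the 461 arms counted, miR-34c-5p ranked 71st, 74th and 69th. Its most-read tag has a listed beginning and is included in these ranks. An arm whose main beginning the shortened list lacks is ranked too low. All such intervals cover counting error only, since each stage has a single library. Reads made by PCR are not independent molecules, so the intervals can be too narrow even for counting error.

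miR-34a-5p was the next in order and followed another course. It had 189, 321 and 564 reads in anagen, catagen and telogen. Its level was 11.8 RPM at anagen (10.2 to 13.6), 17.7 RPM at catagen (15.8 to 19.8) and 20.9 RPM at telogen (19.2 to 22.7). Anagen was the lowest of the libraries, and the intervals of catagen and telogen met. Its rank went from 128th in anagen to 119th in catagen and 110th in telogen.

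The 3p arms, which are usually degraded after the duplex is unwound, were far below their 5p partners for miR-34a and miR-34c. The 5p arm of miR-34b was not analysed here. miR-34a-3p had 16, 27 and 49 reads, or 1.00, 1.49 and 1.81 RPM. miR-34b-3p had 6, 5 and 14 reads, and miR-34c-3p 4, 5 and 18 reads, so both stayed under 1 RPM in every library. Their Poisson intervals overlapped between all libraries.

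**Figure D1:**
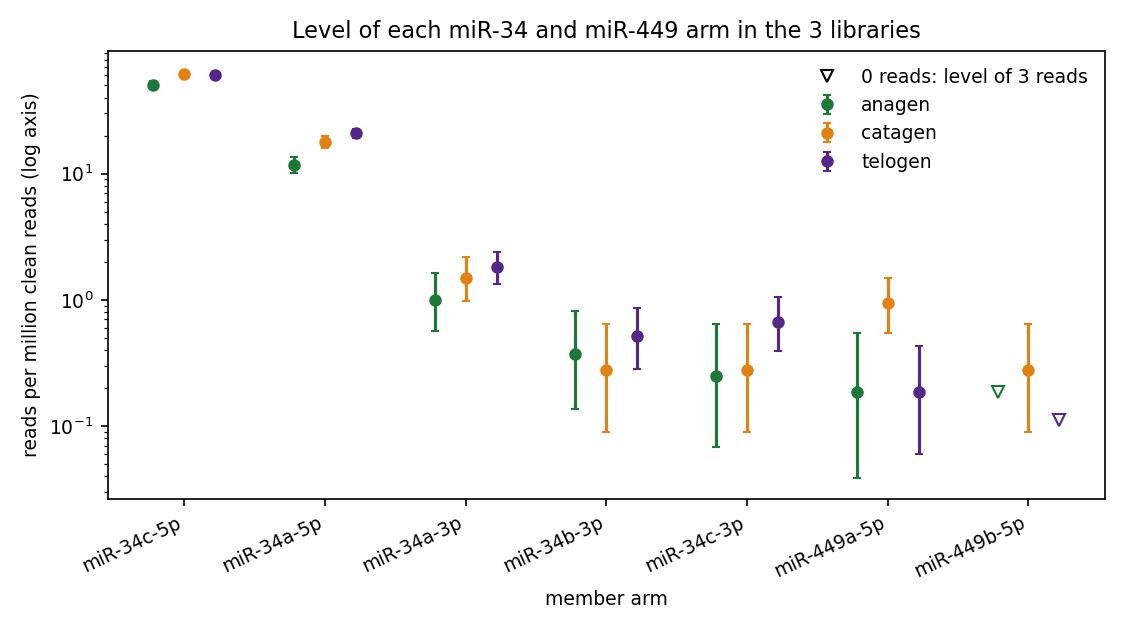
Level of each member arm in RPM (log axis) in the anagen, catagen and telogen libraries; bars are 95% exact Poisson intervals and open triangles stand at the level of 3 reads where an arm had 0 reads. miR-34c-5p sits between 50.4 and 61.2, miR-34a-5p between 11.8 and 20.9, and miR-449a-5p has its highest level, 0.939, in catagen.

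For the comparison of stages, the reads of an arm in 2 libraries were set against each other as a log2 ratio of RPM, with a two-sided exact test after Audic and Claverie. An arm was tested when it reached 1 RPM in either library, and was called when the log2 ratio was beyond 1 in size at p under 0.01. Each stage has a single library, so the differences have no replicate check and every p compares these libraries rather than the stages. Of the 7 member arms, 3 were tested (miR-34a-5p, miR-34a-3p and miR-34c-5p). None of them was called between catagen and anagen, where 27.9% of all tested arms were, nor between telogen and anagen (25.6%), nor between telogen and catagen (13.6%). Without the limit on the ratio, p was under 0.01 for 2 members (miR-34a-5p and miR-34c-5p) in catagen over anagen, where that held for 62.9% of arms. It was so for the same 2 in telogen over anagen (63.5% of arms) and for 0 in telogen over catagen (51.7% of arms), where p was under 0.05 for miR-34a-5p.

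Of these, miR-34a-5p had the larger shift. Its log2 ratio was 0.59 for catagen over anagen (95% exact interval 0.32 to 0.85, exact test p = 8.98e-06), but 0.19 with the TMM scaling of edgeR (exact test p = 0.174) and 0.21 with median-of-ratios factors (exact test p = 0.119). It was 0.82 for telogen over anagen (0.58 to 1.07, exact test p = 2.15e-12), a 1.77-fold higher level. Between telogen and catagen it was 0.24 (0.04 to 0.44, exact test p = 0.0203). With a coefficient of variation between goat pools of 0.4 assumed in place of counting error alone, edgeR's exact test gave p = 0.492 for catagen over anagen and p = 0.336 for telogen over anagen. With 0.1 the same exact test gave p = 0.0181 and p = 0.000615.

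For miR-34c-5p the log2 ratio was 0.28 for catagen over anagen (0.15 to 0.41, exact test p = 2.88e-05), but -0.12 with TMM. It was 0.27 for telogen over anagen (0.14 to 0.39, exact test p = 1.74e-05), but -0.015 with TMM. It was -0.01 for telogen over catagen (-0.13 to 0.10, exact test p = 0.796). With clean-read scaling that interval ends at 1.07-fold in favour of telogen, but the log2 ratio was 0.28 with scaling to all miRNA reads (exact test p = 6.43e-07) and 0.14 with median-of-ratios factors (exact test p = 0.0114).

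The median of all tested arms was itself 0.41 for catagen over anagen, 0.30 for telogen over anagen and -0.11 for telogen over catagen on the log2 scale. Relative to that median, miR-34a-5p lay 0.17, 0.52 and 0.35 higher. miR-34c-5p lay at -0.13, -0.03 and 0.10 relative to it, so the direction of miR-34c-5p turned in each comparison with the reference chosen. For telogen over anagen, 26.3% of tested arms had a higher ratio than miR-34a-5p and 51.2% a higher one than miR-34c-5p. The third tested arm, miR-34a-3p, had a log2 ratio of 0.58 in catagen over anagen (-0.37 to 1.57) and 0.86 in telogen over anagen (0.02 to 1.77).

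**Figure D2:**
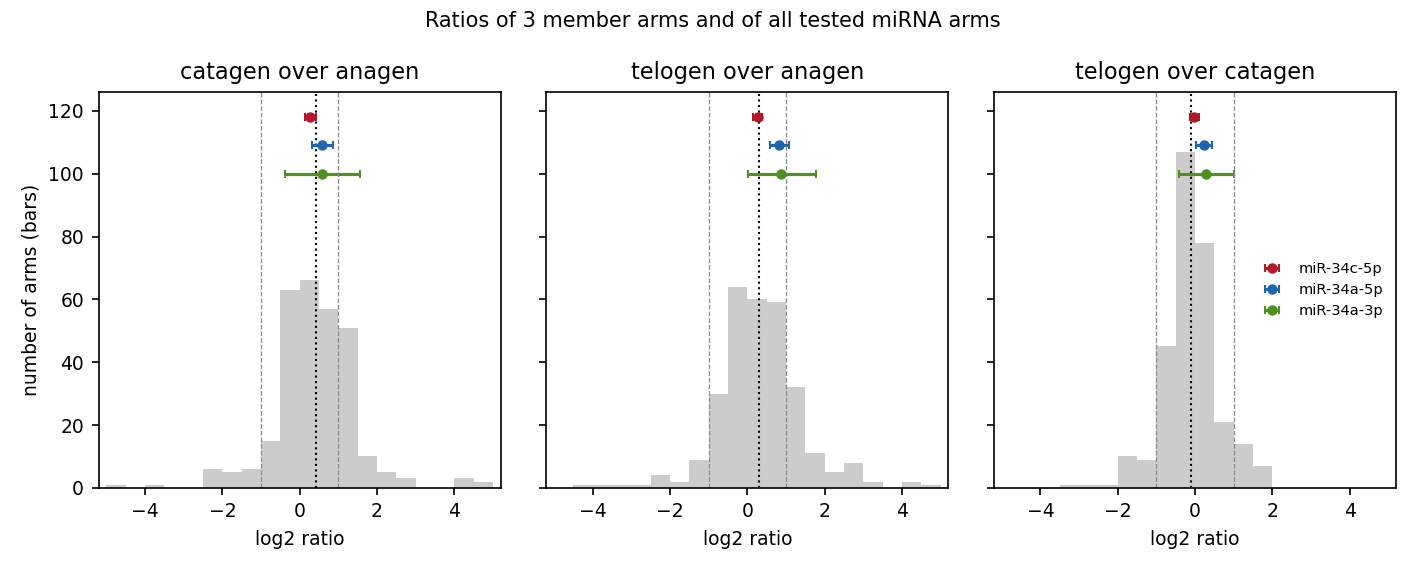
Log2 ratio of RPM for miR-34c-5p, miR-34a-5p and miR-34a-3p (points at arbitrary heights, bars are 95% exact intervals) above the number of all tested arms at each ratio (grey bars, ratios beyond 5 in size drawn in the outermost bar), for each comparison of libraries. The dotted line is the median of all tested arms and the dashed lines mark -1 and 1; miR-34c-5p lies near the median and miR-34a-5p to its right.

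The balance between the abundant members can be read without any scaling, since both arms come from the same library. There were 4.27 reads of miR-34c-5p per read of miR-34a-5p at anagen, 3.45 at catagen and 2.90 at telogen, and 0.629, 0.361 and 0.264 with listed tags alone. The ratio in telogen was 0.68 of that in anagen (95% exact conditional interval 0.56 to 0.82). Catagen over anagen gave 0.81 (0.66 to 0.99) and telogen over catagen 0.84 (0.72 to 0.99). miR-34a-5p thus made up 18.4% of the reads of the family's counted arms at anagen, 21.6% at catagen and 24.7% at telogen. This was 1 of 5 such pairs of arms compared, over 15 comparisons.

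The ratio of 5p to 3p reads, which describes which strand of the duplex is kept, stayed level for miR-34a at 11.8, 11.9 and 11.5 in anagen, catagen and telogen. For miR-34c there were 202 reads of the 5p arm per 3p read at anagen, 222 at catagen and 91.0 at telogen. The 3p share of miR-34c rested on only 4, 5 and 18 reads, and between telogen and catagen it did not pass Fisher's exact test (adjusted p = 0.235 over all share tests). Over all precursors, the share of the lesser arm was called in 28.3% for catagen against anagen, 28.2% for telogen against anagen and 28.6% for telogen against catagen, and for 0 of the members. miR-34b-3p and miR-34c-3p, whose precursors are annotated as neighbours, had 0.667 reads of miR-34c-3p per read of miR-34b-3p at anagen, 1.00 at catagen and 1.29 at telogen. The intervals of these ratios were too wide to order them.

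The miR-449 arms were rare, and most of their reads lay in the catagen library. miR-449a-5p had 3 reads at anagen, 17 at catagen and 5 at telogen, which are 0.188, 0.939 and 0.185 RPM. miR-449b-5p had 5 reads, all in catagen, and 0 in the other libraries. Together they gave 3, 22 and 5 reads, although the telogen library was the deepest.

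The level of miR-449a-5p was 5.01 times as high in catagen as in anagen (95% exact interval 1.45 to 26.7). In telogen it was 0.197 of that in catagen (0.0569 to 0.557), and 0.987 of that in anagen (0.192 to 6.36). For miR-449b-5p, 0 reads were set to the limit of 3 reads per library and the 5 catagen reads taken as exact. On that reckoning catagen was 1.47-fold higher than anagen and 2.49-fold higher than telogen. With counting error in the 5 catagen reads, neither value is a lower bound. The exact interval of catagen over anagen reached down to 0.809-fold, so that difference was not detectable at this depth, and the one of telogen over catagen reached up to 0.732-fold. Neither arm came to 1 RPM in any library, so neither was tested.

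Without that minimum, miR-449a-5p was called in catagen over anagen (exact test p = 0.00605), where 19% of arms were called. In telogen over catagen, miR-449a-5p (exact test p = 0.000454) and miR-449b-5p (exact test p = 0.00836) were called, against 10.3% of arms. In telogen over anagen no member was called, against 17.3% of arms. For miR-449a-5p in catagen over anagen, the exact test gave p = 0.0284 with median-of-ratios factors, 0.0312 with TMM and 0.102 for the most abundant tag alone, and edgeR's exact test p = 0.0675 with a coefficient of variation of 0.4. In telogen over catagen the most abundant tag alone gave p = 0.117 by the exact test and the coefficient of variation of 0.4 gave p = 0.0578 by edgeR's exact test. There were 269 reads of miR-34c-5p per read of miR-449a-5p at anagen, 65.2 at catagen and 328 at telogen. The ratio in telogen was 5.02 times that in catagen (1.77 to 17.5), a ratio into which no scaling enters. The 17 reads in catagen were spread over 5 tags of 19 to 23 nt, the most-read of them with 7 reads.

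The catagen library also stood apart in its muscle miRNAs. The skeletal muscle list (miR-206 and miR-1, with miR-133a and miR-133b counted together because they cannot be separated) summed to 4116 RPM at anagen, 78781 at catagen and 21402 at telogen. In catagen over anagen 3 of 3 of its arms were called higher, against 21.8% of all tested arms. The red blood cell list (miR-451, miR-144 and miR-486) summed to 1302, 2122 and 876 RPM, although its members differed. miR-144 was at 104, 76.4 and 7.18 RPM, and miR-486 at 335, 779 and 438 RPM. The epithelial list, led by miR-205, summed to 1244, 1995 and 2070 RPM, while miR-203 was not counted here. Of its 6 tested arms 0 were called in any comparison. The share over all tested arms was 27.9% in catagen over anagen, 25.6% in telogen over anagen and 13.6% in telogen over catagen. The higher sums came from miR-205 (999.6, 1794 and 1865 RPM), whereas miR-183 was at 158, 108 and 101 RPM, and the median log2 ratio of the list to anagen was -0.05 in catagen and 0.13 in telogen. In all these sums, an arm whose main beginning the shortened list lacks is counted too low. The liver miRNA miR-122 was at 24.8, 1.99 and 1.22 RPM. The part of these in the levels of miR-34 and miR-449 was not tested. Scaling to miRNA reads without the muscle list moved miR-34a-5p in telogen over anagen to a log2 ratio of 1.20 and past the limit, and miR-34a-3p to 1.24, where 36.2% of arms were called. Scaling to all miRNA reads did so for both arms as well (34.1% of arms), as did the most abundant tag alone for miR-34a-5p (30.4% of arms).

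Within an arm, tags differ in where they begin and end, and such variants (isomiRs) were compared as shares of the arm's reads with Fisher's exact test, adjusted by Benjamini and Hochberg over 3082 share tests on 282 arms or precursors. The members gave 33 of these tests and 4 calls at an adjusted p under 0.05, all of them for miR-34c-5p. Only listed beginnings were counted, 3 for miR-34a-5p and 2 for miR-34c-5p, so any other start was left out beforehand. Among these, the main start, which sets the seed, held nearly all reads of the 2 arms. Of miR-34c-5p, 803 of 807, 1105 of 1109 and 1635 of 1638 reads had the main start. For miR-34a-5p these were 183 of 189, 316 of 321 and 558 of 564. No member share of other starts was called, against 19.4% of arms in catagen over anagen, 22.5% in telogen over anagen and 13.5% in telogen over catagen. Arms outside the family could take any beginning inside their joined listed tags, so the members are not compared with them on equal terms. In miR-34a-3p, 2 of 16, 3 of 27 and 11 of 49 reads began 1 base earlier. In miR-34b-3p the earlier start had 5, 2 and 5 reads and the other 1, 3 and 9. The 2 starts differ in the seed they expose, so these sequences are shown, with bases 2 to 8 of each in capitals.
miR-34b-3p, main start: aATCACTAgttccactgccatc
miR-34b-3p, earlier start: cAATCACTagttccactgccatc
miR-34a-3p, main start: aATCAGCAagtatactgcccta
miR-34a-3p, earlier start: cAATCAGCaagtatactgcccta

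Lengths differed between the members. Tags of 23 nt were 62.0% of miR-34c-5p reads at anagen, 68.1% at catagen and 66.8% at telogen, and those of 22 nt 22.4%, 19.03% and 18.1%. miR-34a-5p was spread more widely, with 31.7%, 35.5% and 41.1% at 22 nt and 26.98%, 38.3% and 29.96% at 23 nt. At 24 nt it held 18.5%, 14.3% and 15.6%.

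**Figure D3:**
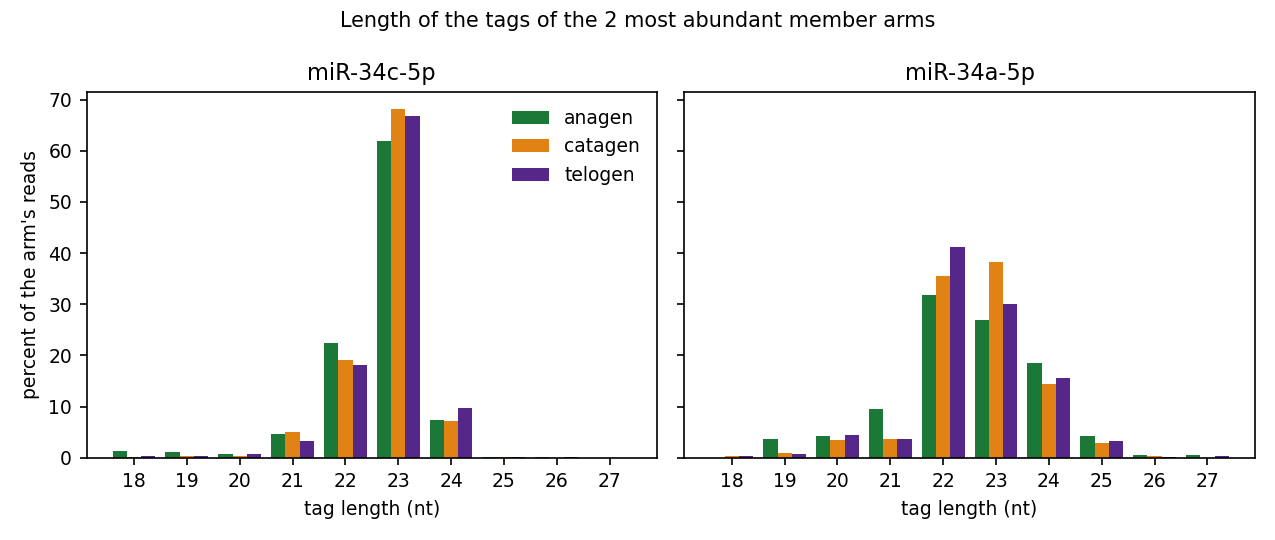
Percent of the reads of miR-34c-5p and miR-34a-5p at each tag length from 18 to 27 nt, in the anagen, catagen and telogen libraries. miR-34c-5p has most of its reads at 23 nt (62.0% to 68.1%), while miR-34a-5p is divided between 22 and 23 nt.

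Short tags, of 20 nt or less, were more frequent in anagen. They were 26 of 807 reads of miR-34c-5p at anagen (3.22%, 95% Wilson interval 2.21 to 4.68), 7 of 1109 at catagen (0.631%, 0.306 to 1.30) and 25 of 1638 at telogen (1.53%, 1.04 to 2.24). The share fell from anagen to catagen (adjusted p = 0.000122, Fisher's exact test) and a change of this share was called in 57.4% of all arms. It was also lower in telogen than in anagen (adjusted p = 0.0376, Fisher's exact test), where 52.2% of arms were called and 0% higher in telogen. Telogen over catagen was not called (adjusted p = 0.136, Fisher's exact test), against 33.5% of arms. For miR-34a-5p the share was 7.94%, 4.67% and 5.50%, and the test was not passed. Counting only tags of 21 nt or longer left the log2 ratios of telogen over anagen at 0.86 for miR-34a-5p and 0.29 for miR-34c-5p.

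At the 3′ end, the most-read tag of miR-34c-5p was found with 1 further base, and the forms are shown with that base in capitals.
miR-34c-5p: aggcagtgtagttagctgattgc
with A: aggcagtgtagttagctgattgcA
with T: aggcagtgtagttagctgattgcT
with G: aggcagtgtagttagctgattgcG
The form without addition had 447 reads at anagen, 685 at catagen and 994 at telogen. The form with A had 34, 46 and 116, the form with T 22, 27 and 37, and the form with G 3, 5 and 6. Of these 4 forms the copy of the authors' list holds only the one with T. Whether A was added after processing cannot be read without the goat precursor.

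The A form was 4.21% of miR-34c-5p reads at anagen (3.03 to 5.83), 4.15% at catagen (3.12 to 5.49) and 7.08% at telogen (5.94 to 8.43). It was higher in telogen than in anagen (adjusted p = 0.0222, Fisher's exact test), as was so for 11.2% of arms with the same measure. It was also higher in telogen than in catagen (adjusted p = 0.00595, Fisher's exact test), against 8.44% of arms. This measure was chosen after the tags had been seen. A wider class held all miR-34c-5p tags not contained in the sequence joined from the listed tags. It takes in a changed last base as well as a longer end. These tags were 12.0%, 11.5% and 14.7% of its reads. Telogen against catagen gave an adjusted p of 0.0521 by Fisher's exact test, or 0.0465 when the tests of the A form were left out of the adjustment. That class was called in 27.6%, 26.5% and 21.1% of arms in the 3 comparisons. For miR-34a-5p the A form was 2.12%, 3.43% and 3.19%, and no difference passed the test. Between catagen and anagen 0 members were called for the A form, against 9.85% of arms called higher.

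**Figure D4:**
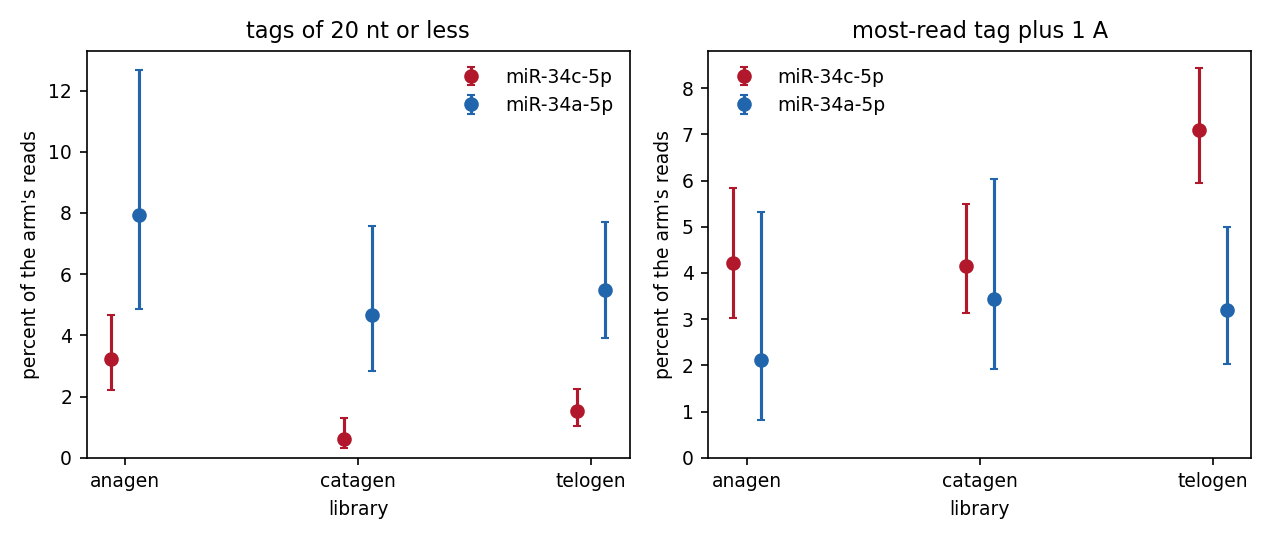
Percent of the reads of miR-34c-5p and miR-34a-5p in tags of 20 nt or less (left) and in the most-read tag with 1 further A (right), by library; bars are 95% Wilson intervals. Short tags of miR-34c-5p are highest in anagen (3.22%) and its A form in telogen (7.08%).

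Among other miRNAs that p53 is known to induce or to help process, a list of 11 names was examined, of which 9 could be counted. Of these, miR-107 was counted together with miR-103, from which it cannot be separated, and miR-16a and miR-16b only through tags with few reads. In catagen over anagen, 2 of 7 tested arms were called higher (21.8% of all arms were) and 0 lower (6.12%), with a median log2 ratio of 0.37, that of the shared miR-103/miR-107 arm, against 0.41 over all arms. The same 2, miR-15a and miR-194, were called in telogen over anagen, where 19.8% of all arms were called higher and 5.8% lower, and the median of the list was -0.0011 against 0.30. That median is the ratio of miR-16b, which had 16 reads at anagen and 27 at telogen (interval -0.95 to 0.99). In telogen over catagen 0 of 6 were called, with a median of 0.05 against -0.11.

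miR-15a, which targets BCL2, had levels of 57.5, 135 and 141 RPM at anagen, catagen and telogen. Its log2 ratio to anagen was 1.23 at catagen and 1.29 at telogen. miR-194, which p53 induces in other tissues, was at 3.50, 7.12 and 7.92 RPM. miR-143, whose maturation p53 is known to promote, was at 12460, 7506 and 11562 RPM, and miR-145 of the same transcript at 26.8, 40.1 and 35.7 RPM. Such levels are too low where the shortened list lacks the main beginning of an arm. The paper places let-7g among its most abundant miRNAs, but here it had only 2, 8 and 28 reads at anagen, catagen and telogen. The levels of miR-143 and miR-145 were therefore not compared with each other.

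Outside the family, the arms whose 2 log2 ratios to anagen came closest to those of a member were sought among 154 arms with at least 100 reads in each library, by the Euclidean distance over both ratios. For miR-34a-5p they were miR-106b (ratios 0.65 in catagen and 0.79 in telogen, distance 0.075), miR-10a (0.61 and 0.74, distance 0.084) and miR-361 (0.44 and 0.81, distance 0.14). For miR-34c-5p they were miR-200b (0.31 and 0.27, distance 0.029), miR-151 (0.29 and 0.18, distance 0.084) and miR-224 (0.35 and 0.21, distance 0.088). Such likeness rests on 3 libraries.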

How the data were processed

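The authors sequenced small RNA (Illumina/Solexa), removed low-quality reads, adapter contaminants, poly(A) reads and reads under 18 nt, and collapsed identical reads. Each deposited file lists tags and, for each, a count that is an unnormalised number of reads. The read aligner plays no part in them.

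Members were counted by the first 18 nt of 30 tags in the authors' list of annotated tags, of which a shortened copy was used (2697 distinct tags). Other arms were counted by any 18 nt inside listed tags joined over at least 14 nt, and 19 such stretches found in 2 arms were left out. The reads were divided by clean reads. The values of 0 were set to 0.01 RPM for calls. Tests used scipy 1.17.1, edgeR 4.0.16 and DESeq2 1.42.0, and were checked on simulated counts. Shares needed 20 reads in each library. Alternatives covered scaling, assignment, test and minimum. The members and lists were chosen with earlier results of these data known. All arms with the member names are described, together with the 3 arms nearest to miR-34a-5p and miR-34c-5p. The authors' columns of fold changes and p-values were not used.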

Additional observations from a re-analysis of the deposited data

Results flagged for a closer look

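Signal outside the counted tags was found beside miR-34c-5p. An unlisted tag beginning had the seed of the family and differed from miR-34c-5p within the first 18 nt by G11A, with positions counted from 1 at the 5′ end of miR-34c-5p. It had 9, 10 and 16 reads in the anagen, catagen and telogen libraries, above the limit of 3 reads that a count of 0 allows. Its most-read tag is shown with that base in capitals, and it also differs from the most-read miR-34c-5p tag at its last base, by C23T.
unlisted tag: aggcagtgtaAttagctgattgt
Of the 48 unlisted beginnings that lay 1 base from a member, with 109 reads in all, another form of it that began 1 base earlier had 1, 4 and 4 reads, and no other had more than 3 reads in total. No source used here pairs this tag with a miRNA name, so it was given none. The G11A substitution was found in 5 distinct tags. Reads of the unlisted tag are in none of the family totals. Whether it comes from the unanalysed arm of miR-34b, another gene or reading errors was not tested. Of all reads with the bases GGCAGTG at positions 2 to 8, the members held 86.8% in anagen, 86.7% in catagen and 88.4% in telogen.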

How the results depend on the processing

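No paired analysis was possible because each stage had 1 library, and for the same reason no replicate could be left out. miR-34a-5p kept its direction under the 10 alternatives that could move its ratio, at 0.17 to 0.86 for catagen over anagen, 0.52 to 1.21 for telogen over anagen and 0.19 to 0.53 for telogen over catagen. In telogen over anagen it came past the limit with scaling to miRNA reads (1.13, 34.1% of arms called), to miRNA reads without the muscle list (1.20) and with the most abundant tag only (1.21, 30.4% of arms called). miR-34c-5p turned direction with the scaling. Catagen over anagen was -0.094 with median-of-ratios factors, -0.12 with TMM, -0.13 centred on the median (added after seeing the data) and -0.062 with listed tags only. Telogen over anagen was -0.015, -0.034 and -0.32 with TMM, centring and listed tags. Telogen over catagen was 0.28, 0.094, 0.14, 0.11 and 0.098 with all miRNA reads, those without muscle, median-of-ratios, TMM and centring. miR-34a-3p in telogen over catagen was -0.070 with listed tags and -0.49 with the most abundant tag.

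The numbers of arms called were 82, 75 and 40 in catagen over anagen, telogen over anagen and telogen over catagen. They were 9, 17 and 2 by edgeR's exact test with a coefficient of variation of 0.4, 185, 186 and 152 without a limit on the ratio, and 28, 23 and 16 where both libraries had to hold at least 100 reads. Of the calls 78.0%, 77.3% and 47.5% were higher, against 49.1%, 56.3% and 51.2% with TMM and 78.0%, 89.0% and 64.6% with scaling to miRNA reads. Member shares called were 4, against 2 with the first 20 nt, where tags under 20 nt drop out. They were 3 without the A form, when the wider class of miR-34c-5p tags outside the listed sequence passed in telogen over catagen. Cause of the other differences was not tested. Depth limits the 3p and miR-449 arms.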
